A study of Mus musculus with 12 samples.

Results

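The genes described here are 37 markers of macrophages and other myeloid cells, chosen by symbol: resident macrophage markers, genes of phagocytosis, and genes of recruited cells and leukocytes in general. A member was measured where a probe of the deposited value table carries its symbol, which held for 30 of the 37 out of 12344 genes in all. All 11 resident macrophage markers, 11 of 15 phagocytic genes and 8 of 11 recruited-cell and leukocyte genes were measured, on 49 probes, while Cd68, Msr1, Cybb, Ncf1, Ccr2, Itgam and Itgax were not analysed here. RNA came from 12 C57BL/6 mice aged 15 weeks, 4 control, 4 Fh1-/- (labelled Fh1 KO) and 4 Fh1-/-Hif-1α-/- (labelled Hif1a/Fh1 KO), and was hybridised to Illumina MouseWG-6 BeadChips. Fh1 encodes fumarate hydratase and Hif-1α the oxygen-regulated subunit of a hypoxia-inducible factor. The Fh1-/- mice carry homozygous conditional Fh1 alleles with Ksp-Cre and the Fh1-/-Hif-1α-/- mice conditional alleles of both genes with Ksp-Cre. The study drew its controls from the same litters, some without the Cre transgene and some with Cre but an intact allele, and the labels do not say which array is which. According to the methods the lines had been crossed back to C57/BL6J over several generations, and whether DNA of another strain remained near a targeted gene was not tested. Ksp-Cre is driven by the promoter of kidney-specific cadherin and is used to remove the genes in tubule epithelium. Whether macrophages keep both genes was not tested. Cysts is the tissue named in the labels, for control mice too, while the methods speak of kidneys.

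Macrophages populate the interstitium of the kidney between the tubules. Resident macrophages carry complement C1q, the fractalkine receptor Cx3cr1 and F4/80 (Adgre1), and depend on signals through Csf1r, whereas monocytes that enter from the blood share general leukocyte genes. Phagocytic cells take up debris through lectins and Fc receptors and digest it with lysozyme and cathepsins, and some of these genes, Lgals3 among them, are made by epithelium as well. The data are whole-tissue RNA, in which more cells of a type and more RNA per cell cannot be told apart.

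Signals are log2 values, with all arrays brought to 1 shared 75th percentile. A gene is represented by its brightest probe, and a difference was called at an adjusted p under 0.05 in limma, a linear model with moderated variance fitted to all 23863 probes. Below the 1st percentile of an array, at 7.34 to 7.54, signals lie at the dim end where a fold is not well measured. The 1st percentile was 7.46 to 7.54 on the arrays of replicates 1 and 2 and 7.34 to 7.40 on those of replicates 3 and 4, so values are also given within these sets of arrays. Xist, which is transcribed from the inactive X, read at least 12.07 on 5 arrays, namely control 4, Fh1-/- 1 and 3, and Fh1-/-Hif-1α-/- 2 and 3, and at most 7.76 elsewhere. The labels name no sex. Kidney tubule genes were the brightest of the marker lists, with a mean of 13.30 to 14.50 on every array. Precision is limited by the number of arrays.

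Promoters of members were read from RefSeq (build GRCm38.p6), since many members moved together. The promoter table used here held 23 of the 30 measured members, all but Adgre1, Csf1r, C1qa, Cd14, Tyrobp, Itgb2 and Cd52. The core of the PU.1 site, GAGGAA, was searched on both strands in the 300 bases around each gene's outermost start. PU.1, encoded by Spi1, is the transcription factor that myeloid cells need to form. The letters occurred in 13 of the 23 promoters (56.5%), and in 7641 of 27025 promoters of all genes (28.3%). Such a match is a description of these letters and not a binding site. Of the members called higher in both knockout groups, Mrc1, C1qc, Fcgr3, Ctss, Cd53, Laptm5 and Ms4a7 held the letters. Lgals3, Gpnmb, Cd163, Lyz1 and Lyz2, also called higher in both, did not. Of members called in neither comparison, Clec7a and Fcgr1 held them and Coro1a and Fcer1g did not. Whether the letters go with the direction of a change was not tested. The 250 bases before the start are shown for Mrc1 and C1qc, called higher in both knockout groups, and for the neighbouring receptor genes Fcgr3 and Fcgr2b, called in opposite directions in Fh1-/-Hif-1α-/- kidneys. They span chr2:14229164-14229413 on the plus strand for Mrc1, chr4:136892915-136893164 on the minus strand for C1qc, chr1:171059404-171059653 on the minus strand for Fcgr3 and chr1:170976072-170976321 on the minus strand for Fcgr2b. Capitals mark the motif on either strand, which is present 3 times in Mrc1, 1 time each in C1qc and Fcgr3, and 0 times in Fcgr2b.
Mrc1: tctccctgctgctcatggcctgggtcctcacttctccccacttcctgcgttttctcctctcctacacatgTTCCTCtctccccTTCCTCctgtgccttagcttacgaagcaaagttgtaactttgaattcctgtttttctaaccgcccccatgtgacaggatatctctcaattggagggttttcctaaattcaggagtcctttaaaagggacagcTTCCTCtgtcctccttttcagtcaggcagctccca
C1qc: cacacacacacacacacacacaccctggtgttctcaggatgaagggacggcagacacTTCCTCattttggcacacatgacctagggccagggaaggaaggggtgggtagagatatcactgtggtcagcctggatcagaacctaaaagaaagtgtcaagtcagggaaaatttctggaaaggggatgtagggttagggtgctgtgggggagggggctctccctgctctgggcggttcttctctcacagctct
Fcgr3: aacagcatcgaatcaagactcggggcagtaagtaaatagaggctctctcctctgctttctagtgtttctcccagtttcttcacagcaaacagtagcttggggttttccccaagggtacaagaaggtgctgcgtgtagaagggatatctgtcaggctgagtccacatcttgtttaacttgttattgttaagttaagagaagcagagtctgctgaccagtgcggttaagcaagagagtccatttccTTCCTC
Fcgr2b: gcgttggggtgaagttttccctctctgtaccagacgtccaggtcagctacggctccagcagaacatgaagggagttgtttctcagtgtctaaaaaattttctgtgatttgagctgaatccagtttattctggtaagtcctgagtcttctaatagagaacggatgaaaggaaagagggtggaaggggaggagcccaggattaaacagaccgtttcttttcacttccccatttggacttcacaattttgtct

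Many macrophage and myeloid genes were higher in both knockout groups than in control kidneys, among them mannose receptor Mrc1, haemoglobin scavenger receptor Cd163, galectin Lgals3 and the lysosomal glycoprotein Gpnmb. Fh1-/- kidneys had 14 of the 30 members (46.7%) called higher than control and 0 called lower, where 3.9% of all genes were called higher and 2.26% lower. In Fh1-/-Hif-1α-/- against control kidneys 22 (73.3%) were called higher and 1 lower, Fcgr2b, beside 10.7% and 8.64% of all genes. The median log2 fold change of the members was 0.65 for Fh1-/- and 0.93 for Fh1-/-Hif-1α-/- kidneys, against -0.035 and -0.027 over all genes. Over the 3 groups limma's moderated F test called 20 of the 30, and 14% of all genes. The 4 arrays of the knockout group lay above all 4 control arrays in 17 members for Fh1-/- (8.08% of all genes) and in 21 for Fh1-/-Hif-1α-/- (12.2% of all genes). They lay below all 4 in 0 members for Fh1-/- (8.13% of all genes) and in 1 for Fh1-/-Hif-1α-/- (9.78%).

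**Figure D1:**
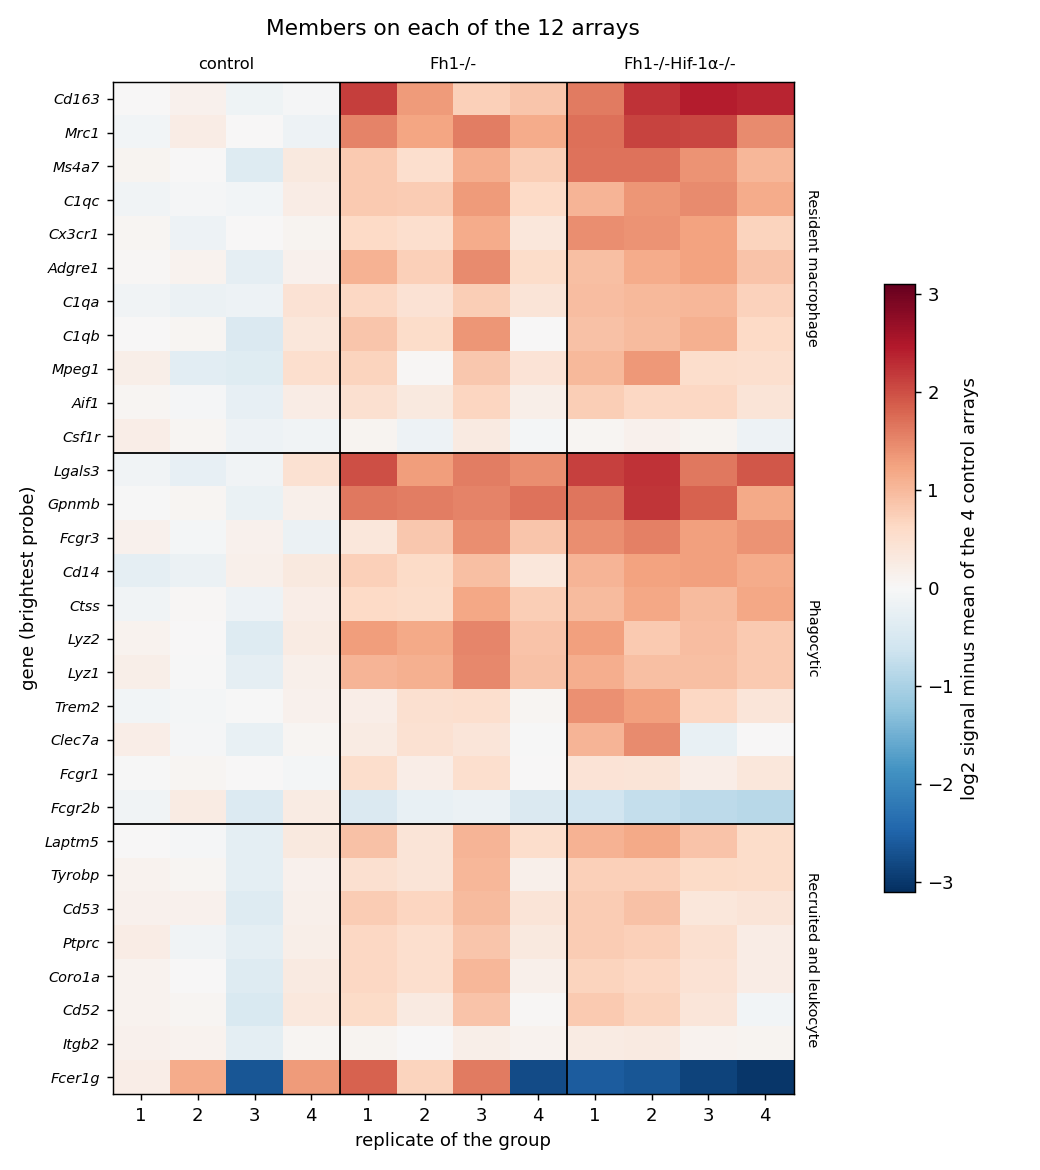
Log2 signal of the 30 measured members (rows, by set and by their difference in Fh1-/-Hif-1α-/- kidneys) on the 12 arrays (columns, by group and replicate), each less the mean of the 4 control arrays. Red is above and blue below control, and most rows are red on all 8 knockout arrays, while Fcer1g splits within groups and Fcgr2b is blue.

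By set, of the resident markers 5 of 11 were called higher for Fh1-/- and 10 of 11 for Fh1-/-Hif-1α-/- kidneys, with medians of 0.71 and 1.05. Of the phagocytic genes 7 of 11 and 8 of 11 were called higher, with medians of 0.78 and 0.96. Of the recruited-cell and leukocyte genes 2 of 8 and 4 of 8 were called higher, with medians of 0.55 and 0.53. Differences between the sets were not tested. Ccr2, Itgam and Itgax of the last set were not measured, and whether the 8 genes left tell recruited from resident cells was not tested. Within the arrays of replicates 1 and 2 alone the median of all members was 0.60 for Fh1-/- and 1.04 for Fh1-/-Hif-1α-/- kidneys. There 7 members were called for Fh1-/-, all higher, and 27 for Fh1-/-Hif-1α-/- kidneys, 25 higher and 2 lower (178 and 2047 of 12344 genes). Within replicates 3 and 4 the median was 0.68 and 0.73, with 0 and 3 called (0.332% and 1.49% of all genes). In the latter arrays, 2 against 2, limma gave 14 and 16 members an unadjusted p under 0.05, beside 11.8% and 19.4% of all genes. Without control replicate 1 or control replicate 2 the count in Fh1-/- kidneys went from 14 to 9, and the share of all genes was not counted in those fits.

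**Figure D2:**
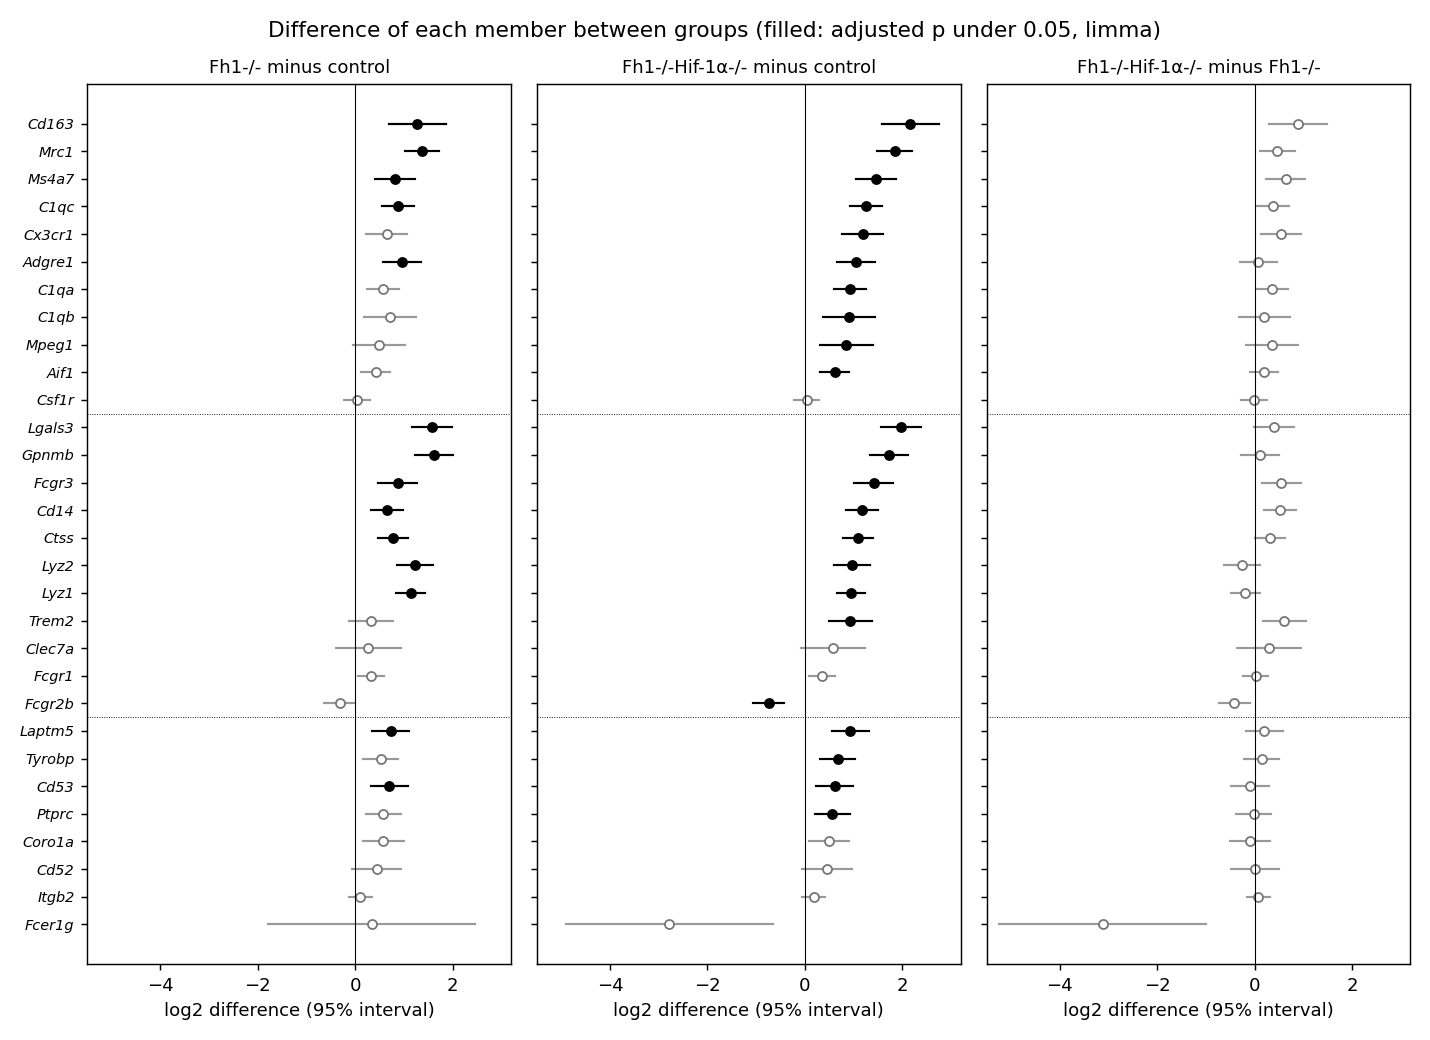
Log2 difference of each member with its 95% interval from limma, for Fh1-/- minus control, Fh1-/-Hif-1α-/- minus control and Fh1-/-Hif-1α-/- minus Fh1-/-. Filled points passed an adjusted p under 0.05, which 14, 23 and 0 of the 30 members did.

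Among the resident markers Mrc1, the mannose receptor that takes up glycoproteins, had signals of 8.67, 8.98, 8.75 and 8.60 on control arrays 1 to 4, 10.29, 9.98, 10.34 and 9.89 on Fh1-/- arrays and 10.46, 10.85, 10.83 and 10.22 on Fh1-/-Hif-1α-/- arrays. Every knockout array lay at least as high as 9.89, above the highest control. The rise was 2.59-fold in Fh1-/- (log2 fold change 1.37, SE 0.16, adjusted p = 0.00071, limma) and 3.59-fold in Fh1-/-Hif-1α-/- kidneys (1.84, SE 0.16, adjusted p = 2.7e-05), and the exact permutation test gave 0.029 for each, the smallest two-sided p that 4 against 4 arrays allow.

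Cd163, the scavenger receptor for haemoglobin bound to haptoglobin, was at 7.25, 7.36, 7.10 and 7.20 on the control arrays, below the 1st percentile on all 4. It was at 9.38, 8.56, 7.96 and 8.10 on Fh1-/- and at 8.84, 9.46, 9.67 and 9.59 on Fh1-/-Hif-1α-/- arrays. The groups did not overlap with control, and Fh1-/- replicate 1 stood at the level of the Fh1-/-Hif-1α-/- arrays. The log2 fold change was 1.27 (SE 0.27, adjusted p = 0.02, limma) and 2.16 (SE 0.27, adjusted p = 0.00031), measured from the dim end of the arrays. Without control replicate 1 or 3 the call in Fh1-/- kidneys was lost, at an adjusted p of 0.06 and 0.055. A dimmer second probe gave 0.29 and 0.58, called only in Fh1-/-Hif-1α-/- kidneys.

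Ms4a7, a membrane protein of the tetraspan family found in macrophages, was at 9.27, 9.20, 8.79 and 9.49 on control, 10.01, 9.72, 10.32 and 9.96 on Fh1-/- and 10.87, 10.88, 10.58 and 10.23 on Fh1-/-Hif-1α-/- arrays. Both knockout groups lay wholly above control. It rose 1.76-fold (log2 0.82, SE 0.19, adjusted p = 0.027, limma) and 2.74-fold (1.45, SE 0.19, adjusted p = 0.00036). The call in Fh1-/- kidneys was lost without any 1 of 5 arrays (control 1, 2 or 3, Fh1-/- 1 or 3; adjusted p 0.06 to 0.092). A dimmer second probe gave 0.22 (adjusted p = 0.49, limma, overlapping control), which ends the call in Fh1-/- kidneys, and 0.81 (adjusted p = 0.0066) in Fh1-/-Hif-1α-/- kidneys.

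The 3 chains of complement C1q, which start the classical pathway and are made mainly by macrophages, differed in the same direction. C1qc was at 10.13, 10.21, 10.17 and 10.48 on control, 11.07, 11.03, 11.56 and 10.87 on Fh1-/- and 11.30, 11.62, 11.72 and 11.40 on Fh1-/-Hif-1α-/- arrays, with no overlap of either knockout group with control. The rise was 1.85-fold (log2 0.88, SE 0.15, adjusted p = 0.0067, limma) and 2.40-fold (1.26, SE 0.15, adjusted p = 0.00025). C1qa and C1qb rose in Fh1-/-Hif-1α-/- kidneys, by 0.93 and 0.91 on the log2 scale. In Fh1-/- kidneys C1qa differed by 0.57 and narrowly missed the threshold (adjusted p = 0.05, limma), and C1qb differed by 0.71 (adjusted p = 0.11). The C1qb call rested on single arrays, since leaving out control 1, 2 or 3 or Fh1-/-Hif-1α-/- 2 or 3 gave an adjusted p of 0.052 to 0.069.

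Cx3cr1, the receptor for fractalkine, was at 8.96, 8.73, 8.91 and 8.98 on control, 9.5, 9.40, 10.04 and 9.23 on Fh1-/- and 10.33, 10.28, 10.13 and 9.58 on Fh1-/-Hif-1α-/- arrays. All knockout arrays were above all controls, yet only the Fh1-/-Hif-1α-/- difference was called, at 2.28-fold (log2 1.19, SE 0.19, adjusted p = 0.0014, limma), against 0.65 (SE 0.19, adjusted p = 0.072) in Fh1-/- kidneys. Adgre1, whose product is the F4/80 antigen, rose on both of its probes in both groups, by 0.87 to 1.05 on the log2 scale. Aif1, an actin-binding protein of macrophages, and Mpeg1, a pore-forming protein, rose in Fh1-/-Hif-1α-/- kidneys, by 0.61 and 0.85, and were not called in Fh1-/- kidneys, at 0.42 and 0.49. For Mpeg1 that call was lost without any 1 of 5 arrays (control 1, 2 or 3, Fh1-/-Hif-1α-/- 1 or 2; adjusted p 0.059 to 0.1) and a second, dim probe gave -0.05.

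Csf1r, the receptor for the macrophage growth factors Csf1 and Il34, was the resident marker with the smallest difference. Its signal was 11.18, 11.04, 10.82 and 10.88 on control, 11.07, 10.83, 11.25 and 10.93 on Fh1-/- and 11.05, 11.12, 11.06 and 10.83 on Fh1-/-Hif-1α-/- arrays. The 3 groups overlapped throughout. The log2 difference was 0.04 in each comparison with control, with 95% intervals from -0.22 to 0.30 and from -0.22 to 0.29, and the dimmer probe gave -0.08 and -0.07. These intervals lie below the values of Mrc1, Cd163, C1qc and Adgre1 in the same comparisons.

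**Figure D3:**
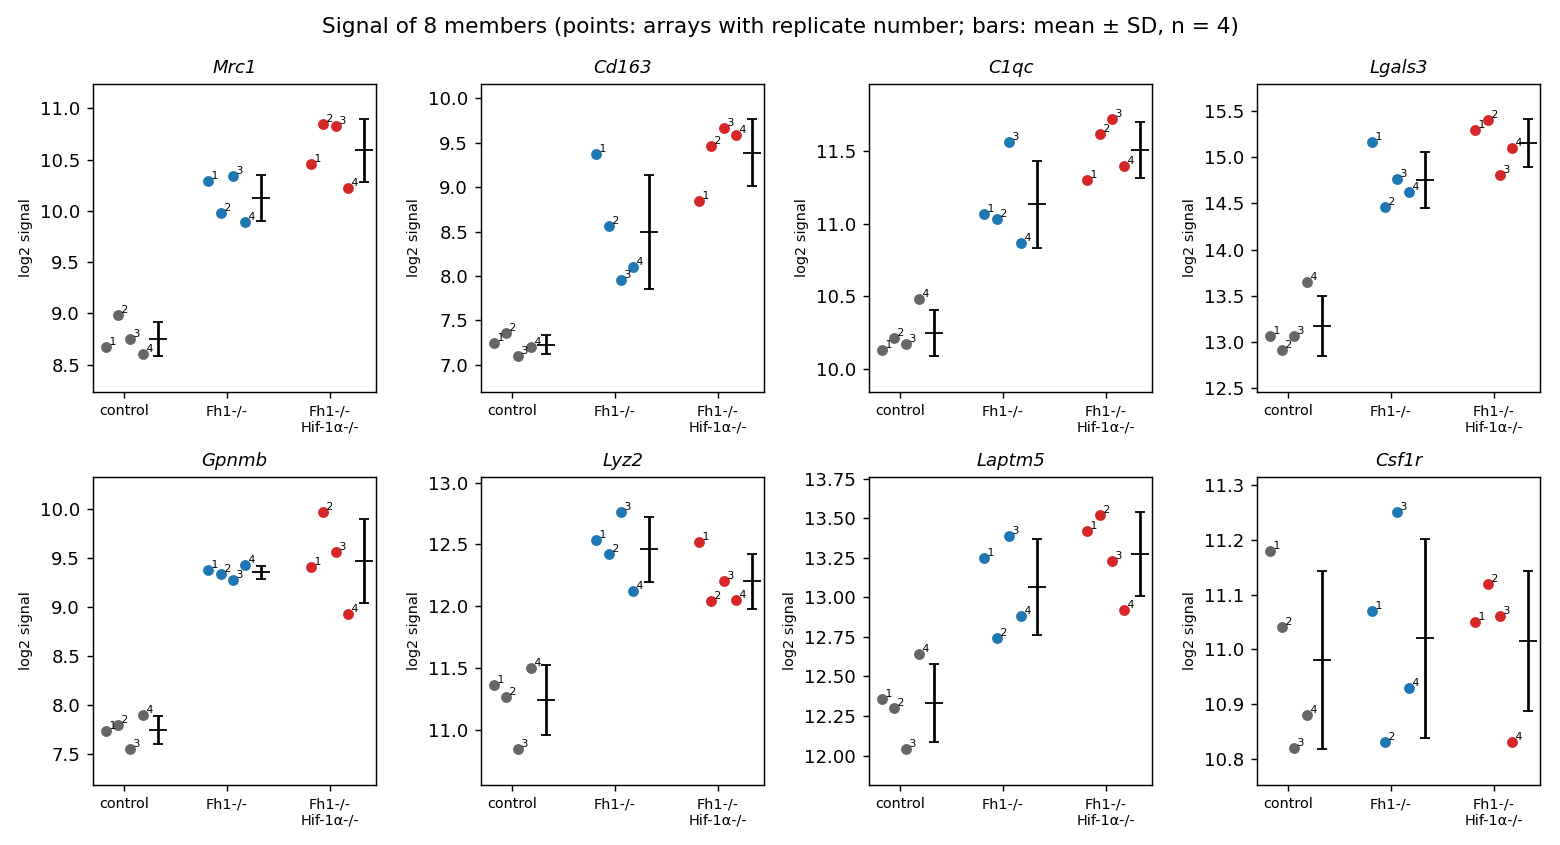
Log2 signal of 8 members on each array (points with the replicate number, left to right control, Fh1-/- and Fh1-/-Hif-1α-/-), with mean and SD of 4 arrays beside each group. Mrc1, Cd163, C1qc, Lgals3, Gpnmb, Lyz2 and Laptm5 lie above control on all 8 knockout arrays, while the Csf1r groups overlap.

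Of the phagocytic genes Lgals3 was the brightest. Galectin-3 is a lectin of activated macrophages that kidney epithelium can make too. Signals were 13.07, 12.91, 13.07 and 13.65 on control, 15.16, 14.46, 14.76 and 14.62 on Fh1-/- and 15.29, 15.40, 14.81 and 15.10 on Fh1-/-Hif-1α-/- arrays. No knockout array reached down to the highest control, replicate 4. The rise was 2.99-fold (log2 1.58, SE 0.19, adjusted p = 0.00072, limma) and 3.93-fold (1.98, SE 0.19, adjusted p = 4.3e-05).

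Gpnmb, a glycoprotein of lysosome-rich macrophages, was at 7.74, 7.80, 7.55 and 7.90 on control, 9.38, 9.34, 9.28 and 9.43 on Fh1-/- and 9.41, 9.97, 9.57 and 8.93 on Fh1-/-Hif-1α-/- arrays. The control and Fh1-/- values did not overlap and were tight, with SDs of 0.14 and 0.06. The fold was 3.06 (log2 1.61, SE 0.18, adjusted p = 0.00048, limma) and 3.31 (1.73, SE 0.18, adjusted p = 7.6e-05), although 2 control arrays were below their 5th percentile of signal.

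The lysozymes digest bacterial cell walls. Lyz2, the lysozyme of macrophages and neutrophils in the mouse, was at 11.36, 11.26, 10.84 and 11.50 on control, 12.54, 12.42, 12.76 and 12.12 on Fh1-/- and 12.52, 12.04, 12.20 and 12.05 on Fh1-/-Hif-1α-/- arrays. It rose 2.33-fold (log2 1.22, SE 0.17, adjusted p = 0.0020, limma) and 1.95-fold (0.96, SE 0.17, adjusted p = 0.0026), with all knockout arrays above control. Lyz1, its neighbour and close copy, rose by 1.14 and 0.95. On the brightest probe the fold change in Fh1-/- kidneys was the larger one for both. The difference between the knockout groups was -0.26 for Lyz2 (95% interval -0.62 to 0.11) and -0.19 for Lyz1 (-0.49 to 0.11). Whether a probe parts the copies was not tested. The 3 probes of Lyz2 gave 0.81 to 1.22 in Fh1-/- kidneys, all called, and 0.52 to 0.96 in Fh1-/-Hif-1α-/- kidneys, where 2 of the 3 were called. The dimmer probes of Lyz1 were not called, with one at 9.77 on Fh1-/-Hif-1α-/- replicate 2 and at 7.40 to 8.08 on the other arrays of that group.

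Fcgr3, an activating receptor for antibody complexes, was at 9.01, 8.81, 9.01 and 8.70 on control, 9.23, 9.71, 10.31 and 9.75 on Fh1-/- and 10.31, 10.45, 10.15 and 10.28 on Fh1-/-Hif-1α-/- arrays. Fh1-/- replicate 1 lay closest to control, but still above it. The rise was 1.82-fold (log2 0.87, SE 0.18, adjusted p = 0.021, limma) and 2.67-fold (1.41, SE 0.18, adjusted p = 0.00039), and the first call was lost without control replicate 2 (adjusted p = 0.053).

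Cd14, the co-receptor for bacterial lipopolysaccharide, was at 9.08, 9.16, 9.5 and 9.65 on control, 10.10, 9.94, 10.28 and 9.71 on Fh1-/- and 10.40, 10.59, 10.62 and 10.5 on Fh1-/-Hif-1α-/- arrays. The groups formed a ladder without overlap, with Fh1-/- replicate 4 just above control replicate 4. It rose by 0.66 (SE 0.15, adjusted p = 0.028, limma) and 1.18 (SE 0.15, adjusted p = 0.00036) on the log2 scale, and the first call was lost without control 1 or 2 or Fh1-/- 1 or 3 (adjusted p 0.075 to 0.097). Ctss, a lysosomal protease that trims antigen, rose by 0.78 and 1.09. Trem2, a lipid receptor of phagocytes, was called only in Fh1-/-Hif-1α-/- kidneys, at 0.93, from control signals under the 5th percentile on all 4 arrays. Clec7a, the receptor for fungal glucan, and Fcgr1, the high-affinity antibody receptor, were not called in either comparison, at 0.27 and 0.57 and at 0.33 and 0.35.

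The Fc receptor genes Fcgr2b, Fcgr3 and Fcer1g lie on chromosome 1, with 8 measured genes between Fcgr2b and Fcer1g and 6 between Fcgr3 and Fcer1g in the gene order of GRCm38.p6, and the deleted gene Fh1 lies on the same chromosome, 38 measured genes from Fcer1g. Their values differed in direction. Fcgr2b, the inhibitory receptor of the family, was at 11.08, 11.43, 10.76 and 11.44 on control, 10.74, 10.96, 11 and 10.73 on Fh1-/- and 10.58, 10.45, 10.38 and 10.33 on Fh1-/-Hif-1α-/- arrays. Every Fh1-/-Hif-1α-/- array lay below every array of the other groups, and control replicate 3 was the low one of its group. Against control the signal fell by 0.74 on the log2 scale (SE 0.15, adjusted p = 0.0053, limma), 1.67-fold lower, and all 3 probes were called lower. In Fh1-/- kidneys the difference was -0.32 (SE 0.15, adjusted p = 0.23). Among the phagocytic members it was the one called lower, beside 8 called higher.

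Fcer1g encodes the signalling chain that activating Fc receptors such as Fcgr3 share. Its 1 probe read 10.07, 11.03, 7.21 and 11.18 on control, 11.71, 10.56, 11.48 and 7.10 on Fh1-/- and 7.28, 7.23, 7.0 and 6.85 on Fh1-/-Hif-1α-/- arrays. The values fell into 6 at or below 7.28, all under the 1st percentile of their array, and 6 at or above 10.07, with a gap of 2.78 between them. Control replicate 3 and Fh1-/- replicate 4 were in the lower cluster together with all 4 Fh1-/-Hif-1α-/- arrays. The difference of -2.78 between Fh1-/-Hif-1α-/- and control (SE 0.98, adjusted p = 0.072, limma) and of -3.12 against Fh1-/- (SE 0.98, adjusted p = 0.28) was not called. Tyrobp, an adaptor of the same kind, showed no such split, at 8.93 to 9.37 on control and 9.40 to 10.26 on the knockout arrays. Fcer1g was taken out of the recruited set after its values were seen. The mean of the set was then 9.61 to 10.17 on control, 10.21 to 10.82 on Fh1-/- and 10.25 to 10.70 on Fh1-/-Hif-1α-/- arrays. Knockout and control did not overlap there, by the narrow margin between control replicate 4 at 10.17 and Fh1-/- replicate 4 at 10.21. With Fcer1g kept, the ranges were 9.31 to 10.29, 9.82 to 10.90 and 9.83 to 10.28, which overlap. Whether the level of this probe follows the amount of transcript or a sequence difference between mice under the probe was not tested, nor was it for Fcgr2b and Fcgr3 on the same chromosome as the targeted Fh1. The Fcer1g values are given here as signals of the probe and are not read as expression.

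**Figure D4:**
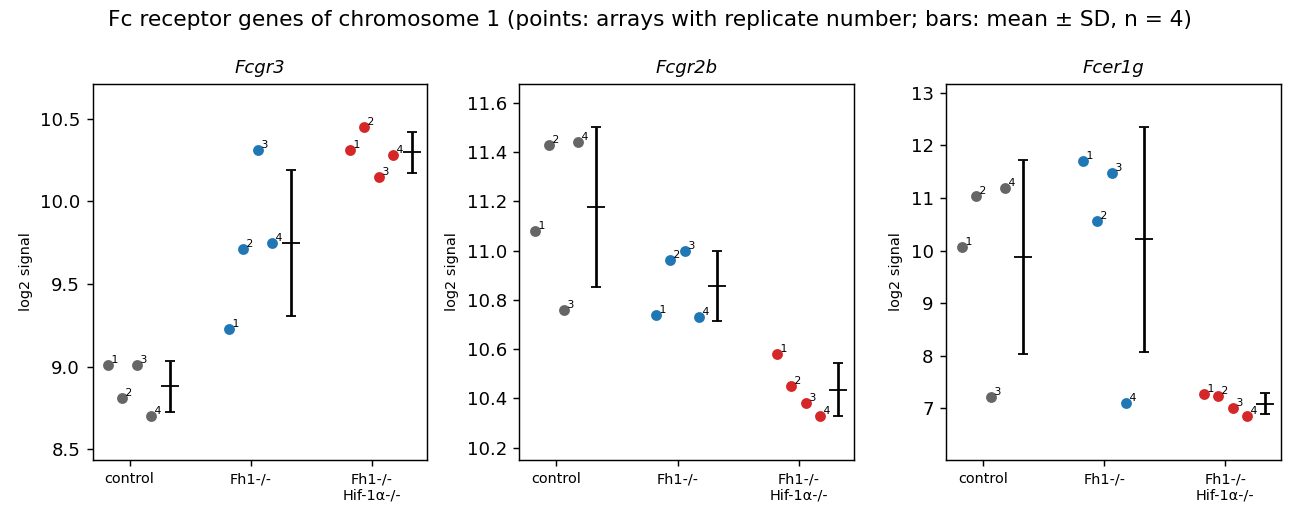
Log2 signal of Fcgr3, Fcgr2b and Fcer1g on each array (points with the replicate number), with mean and SD of 4 arrays beside each group. Fcgr3 is higher and Fcgr2b lower in Fh1-/-Hif-1α-/- kidneys, and Fcer1g sits either at or below 7.28 or at or above 10.07.

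In the recruited-cell and leukocyte set the differences were smaller. Laptm5, a lysosomal membrane protein of blood cells, was at 12.36, 12.30, 12.04 and 12.64 on control, 13.25, 12.74, 13.39 and 12.88 on Fh1-/- and 13.42, 13.52, 13.23 and 12.92 on Fh1-/-Hif-1α-/- arrays. Both knockout groups stood above control, by little for Fh1-/- replicate 2. It rose 1.66-fold (log2 0.73, SE 0.18, adjusted p = 0.034, limma) and 1.91-fold (0.93, SE 0.18, adjusted p = 0.0040). The call in Fh1-/- kidneys was lost without control 1, 2 or 3 or Fh1-/- 1 or 3 (adjusted p 0.076 to 0.11).

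Cd53, a tetraspanin of leukocytes, was at 9.86, 9.85, 9.31 and 9.88 on control, 10.51, 10.39, 10.69 and 10.12 on Fh1-/- and 10.51, 10.64, 10.06 and 10.12 on Fh1-/-Hif-1α-/- arrays. Control replicate 3 stood apart below the rest of its group. The log2 fold change was 0.70 (SE 0.18, adjusted p = 0.041, limma) and 0.61 (SE 0.18, adjusted p = 0.034). Leaving out any of 6 arrays ended the first call (control 1, 2 or 3, Fh1-/- 1, 2 or 3; adjusted p 0.063 to 0.13) and any of 5 the second (control 1, 2 or 3, Fh1-/-Hif-1α-/- 1 or 2; adjusted p 0.055 to 0.1).

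Tyrobp, the adaptor that carries the signal of Trem2 and related receptors, was at 9.34, 9.31, 8.93 and 9.37 on control, 9.73, 9.63, 10.26 and 9.40 on Fh1-/- and 9.99, 9.97, 9.83 and 9.82 on Fh1-/-Hif-1α-/- arrays. No knockout array was below a control array, with Fh1-/- replicate 4 next to the highest of them. The difference was called in Fh1-/-Hif-1α-/- (log2 0.67, SE 0.17, adjusted p = 0.018, limma) and not in Fh1-/- kidneys (0.52, SE 0.17, adjusted p = 0.095). Without control 3 or Fh1-/-Hif-1α-/- 2 the adjusted p was 0.052 and 0.053.

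Ptprc, the phosphatase CD45 of all white blood cells, was at 8.68, 8.33, 8.14 and 8.62 on control, 9.08, 8.95, 9.31 and 8.75 on Fh1-/- and 9.22, 9.18, 8.94 and 8.68 on Fh1-/-Hif-1α-/- arrays. Here the Fh1-/-Hif-1α-/- group touched control at replicate 4 and the Fh1-/- group did not. The log2 difference was 0.58 in Fh1-/- (SE 0.17, adjusted p = 0.067, limma) and 0.56 in Fh1-/-Hif-1α-/- kidneys (SE 0.17, adjusted p = 0.038), and the latter call ended without control 2 or 3 or Fh1-/-Hif-1α-/- 1, 2 or 3 (adjusted p 0.061 to 0.1). A dimmer second probe of Ptprc gave 0.08 in each comparison (adjusted p = 0.84 and 0.78, limma), so the call rested on 1 probe. Coro1a, an actin regulator of leukocytes, Cd52, a surface glycoprotein, and Itgb2, the shared chain of leukocyte integrins, were not called, with log2 differences of 0.10 to 0.58 for Fh1-/- and of 0.18 to 0.49 for Fh1-/-Hif-1α-/- kidneys. Itgb2 was dim on all arrays, at 7.52 to 8.09.

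The comparison of Fh1-/-Hif-1α-/- with Fh1-/- kidneys sets the added loss of Hif-1α beside loss of Fh1 alone. The paper reports cysts in Fh1-/- kidneys, which began earlier and progressed faster where Hif-1α was lost too. Loss of Hif-1α and more advanced cystic disease cannot be told apart in this comparison. Of the 30 members 0 were called by limma, beside 0.186% of all genes called higher and 0.081% called lower. At an unadjusted p under 0.05 limma gave 12 members, 10 higher and 2 lower, beside 1331 of 12344 genes (10.8%), 839 higher and 492 lower, and eBayes without a trend gave 12 members. In the main fit the 2 lower members were Fcgr2b and Fcer1g, and the signal of the Fcer1g probe is not read as expression. The median log2 difference was 0.20 over all members, 0.36 over the resident, 0.30 over the phagocytic and -0.00 over the recruited genes. Cd163 differed most among the resident markers, by 0.89 (95% interval 0.30 to 1.48, adjusted p = 0.26, limma), followed by Ms4a7 with 0.64 (0.24 to 1.04, adjusted p = 0.24). Cd14 was the 1 member with all Fh1-/-Hif-1α-/- arrays above all Fh1-/- arrays (3.94% of all genes), at 0.52 (0.19 to 0.85, adjusted p = 0.23), and Fcgr2b the 1 with all of them below (2.09%), at -0.42 (-0.74 to -0.10, adjusted p = 0.36). For Mrc1 the difference was 0.47 (0.12 to 0.82) and for Lgals3 0.40 (-0.01 to 0.80), so that a fold of 1.38 and 1.32 could not be told from the spread after adjustment. Within replicates 1 and 2 the median was 0.31, and within replicates 3 and 4 it was 0.00. Both comparisons with control share the control arrays, and their values stand side by side above.

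Arrays of 1 group differed in how often they were the extreme of their group. In the control group replicate 3 was the lowest array for 21 of the 30 members (25.5% of all genes) and replicate 4 the highest for 21 (36.2% of all genes). In Fh1-/- kidneys replicate 3 was highest for 24 members (24.2% of all genes) and replicate 4 lowest for 20 (30.5%). In Fh1-/-Hif-1α-/- kidneys replicate 4 was lowest for 20 (29.0%), and replicates 1 and 2 were highest for 12 and 11 (31.8% and 23.5%). The mean of the 11 resident markers ran from 9.31 to 9.70 on control, 10 to 10.54 on Fh1-/- and 10.40 to 10.79 on Fh1-/-Hif-1α-/- arrays. The mean of the 11 phagocytic genes ran from 9.76 to 10.06, from 10.49 to 10.89 and from 10.67 to 11.05. For both sets the lowest knockout array exceeded the highest control array, whereas the knockout groups overlapped with each other.

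**Figure D5:**
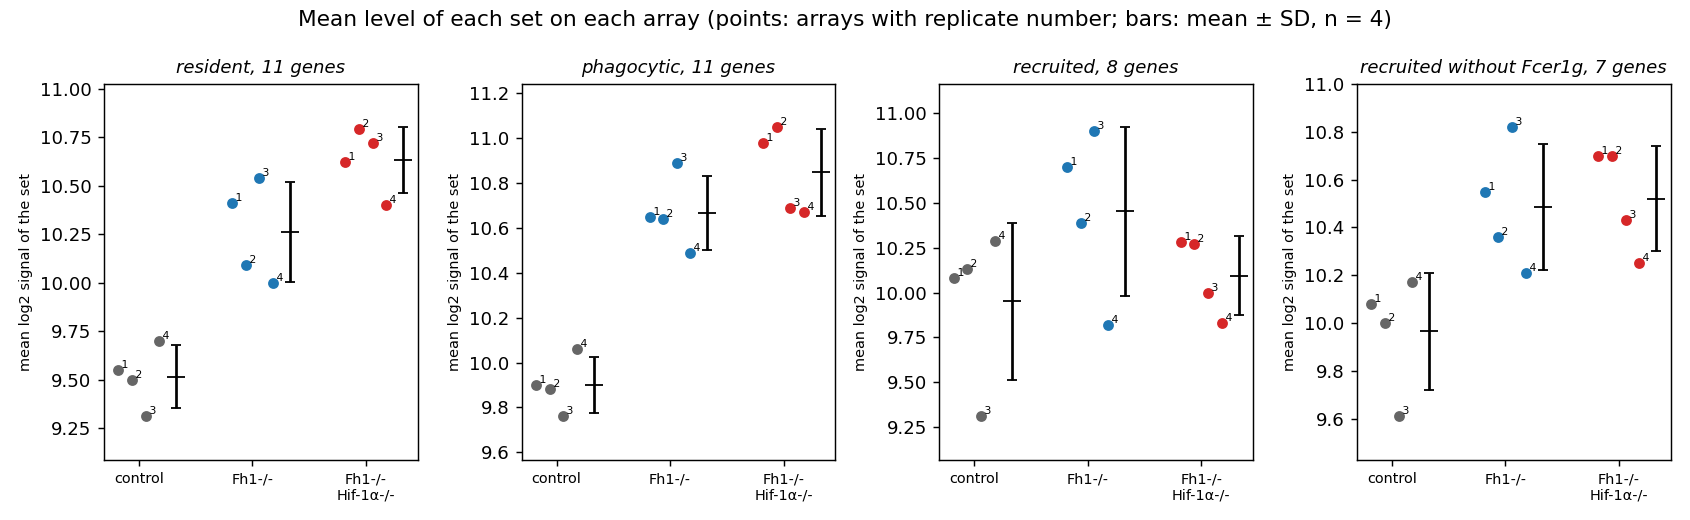
Mean log2 signal of each set of members on each array (points with the replicate number), with mean and SD of 4 arrays beside each group, and for the recruited set also without Fcer1g. Resident and phagocytic means of all 8 knockout arrays lie above the control range. The recruited means do so only without Fcer1g, which was taken out after its values were seen.

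A list of other macrophage genes that are no members had 67 measured. Against control, Fh1-/- kidneys had 11 of them called higher (16.4%) and 0 lower, at a median of 0.35 on the log2 scale, and Fh1-/-Hif-1α-/- kidneys had 22 called higher (32.8%) and 2 lower, with a median of 0.38. The largest called changes were in Plaur, the urokinase receptor (1.16 and 1.55 on the log2 scale), Ms4a6d, a relative of Ms4a7 (1.33 and 1.48), Clec10a, a galactose-binding lectin of macrophages and dendritic cells (1.31 and 1.17), and Cd44, the hyaluronan receptor (0.89 and 1.29). The growth factor Csf1, the ligand of Csf1r, rose by 0.72 (adjusted p = 0.036, limma) and 1.23 (adjusted p = 0.00074), beside differences of 0.04 in its receptor. The list genes called lower were Mertk, a receptor for dying cells, at -0.67, and Cyba, a chain of the phagocyte oxidase, at -0.68, both in Fh1-/-Hif-1α-/- kidneys. With a control mean of 15.35 Cyba was as bright as many kidney tubule genes, and whether its probe reports phagocytes was not tested. Spi1 was dim on all 12 arrays, at 7.60 to 8.23.

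Markers of other white cells were counted in the same way. Of T and NK cell genes 0 of 10, of B cell genes 0 of 2 and of dendritic cell genes 0 of 10 were called in either comparison with control by limma, and at an unadjusted p under 0.05 there were 2, 0 and 2 for Fh1-/- and 0, 0 and 1 for Fh1-/-Hif-1α-/- kidneys, beside 24.1% and 34.5% of all genes. eBayes without a trend was not run on these lists. Their median log2 differences were 0.24, 0.02 and 0.17 for Fh1-/- and 0.18, 0.22 and 0.03 for Fh1-/-Hif-1α-/- kidneys. Above 0 were 7, 1 and 7 genes and 8, 2 and 5 genes, beside 5477 and 5718 of 12344 genes. Cd8b1, Prf1 and Cst3, with control means of 14.28, 13.41 and 14.89, were as bright as many kidney tubule genes. Whether their probes report white cells was not tested, and a gene not called is not thereby unchanged. Of 5 measured neutrophil genes only Lcn2 was called, which injured tubules make as well, and without it the mean of that list was 7.98 to 8.30 on control, 8.0 to 8.63 on Fh1-/- and 7.87 to 8.74 on Fh1-/-Hif-1α-/- arrays. Of 2 mast cell genes Kit was called higher in both groups, by 1.00 and 0.87. Genes of other tissue compartments differed too, in both directions. Over all genes 3.9% and 10.7% were called higher and 2.26% and 8.64% lower, for Fh1-/- and Fh1-/-Hif-1α-/- kidneys. Of 12 measured tubular injury genes 7 and 11 were called higher, with list means of 9.64 to 9.93 on control, 10.77 to 11.48 on Fh1-/- and 11.72 to 11.83 on Fh1-/-Hif-1α-/- arrays, and of 13 fibroblast and matrix genes 4 and 5 were called higher (9.60 to 10.18, 10.22 to 10.54 and 10.29 to 10.87). Of 15 kidney tubule genes 7 and 9 were called lower and 1, Aqp2, higher (14.33 to 14.50, 13.51 to 13.85 and 13.30 to 13.69). Fat cell genes varied by array, with list means of 7.65 to 8.75, 7.70 to 9.59 and 9.13 to 10.99, and 2 of 6, Adipoq and Cidec, were called higher in Fh1-/-Hif-1α-/- kidneys. Among 10 genes that change with tissue handling 2 and 3 were called higher (9.54 to 10.59, 10.10 to 11.09 and 10.57 to 10.83). Of 9 endothelial genes Cdh5 was called higher for Fh1-/- kidneys and Emcn lower for Fh1-/-Hif-1α-/- kidneys (10.83 to 11.03, 11.12 to 11.48 and 10.80 to 11.12), and of 6 red cell genes 2 were called lower in each group (12.69 to 13.68, 11.43 to 12.72 and 11.93 to 12.73). The part of any of these in the members' differences was not tested.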

How the data were processed

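Total RNA of 12 mouse samples (4 control, 4 Fh1-/- and 4 Fh1-/-Hif-1α-/-) was measured on Illumina MouseWG-6 BeadChips. GenomeStudio and GeneSpring GX were used by the authors, with a 75th percentile shift and a baseline at the samples' median, and they deposited 1 log2 signal per probe and array, which is not centred on a baseline (values 6.404 to 16.59). The rule behind the choice of these 23863 probes is not given in the sources used here. A second deposited table, with 24 columns of signals that were not normalized and detection p-values, was not used, since its column names match no sample. Signal over background is therefore unknown, and precision is limited by the number of arrays.

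Samples were grouped by genotype as labelled. Each array was shifted to the mean 75th percentile, by at most 0.04. One limma model (version 3.58.1, R 4.3.3; lmFit, contrasts.fit, eBayes with trend) took in all 3 groups, and Benjamini-Hochberg adjustment ran over every probe. Gene symbols came from the platform annotation (19906 probes with 1 symbol, 9 with several and 3948 with none), and the brightest probe stands for a gene. Exact permutation tests ran over the 70 arrangements of 4 against 4 arrays, two-sided. The p-values of limma set a difference of group means against the spread of arrays within groups. Those of the permutation test set it against rearrangements of the same arrays. Both cover these samples only. The members, lists and tests were chosen with earlier results of these data known. Genes given with every value were, in each set, the 5 with the largest change against control among those called (4 in the recruited set), and every member called lower. Csf1r, Fcer1g and Lyz1 were given after seeing their values, outside the rule, as were Csf1, Spi1, Mertk, Cyba, Lcn2, Kit, Aqp2, Adipoq, Cidec, Cdh5, Emcn and Cfap126. Cd8b1, Prf1 and Cst3 were added in the same way.

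Alternatives were quantile normalization, no shift, equal medians, eBayes without a trend, no moderation, array weights (statmod 1.5.0), fits of 2 groups, a signal filter, 1 probe per gene, the second probe, stricter thresholds, blocks by replicate number or array set, each array set alone, Xist as a covariate and leaving out each array. The replicate numbers share no animal or litter by the labels, and 6 of the 12 same-numbered pairs correlated over 0.1. The fit was tested on simulated data. Plots were drawn with matplotlib 3.10.9 in Python 3.11.15.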

Additional observations from a re-analysis of the deposited data

Results flagged for a closer look

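3 members had 1 array far from the other 3 of its group, by the ratio of the gap to the group's range (Dixon's 95% limit for 4 arrays). C1qa was at 9.38 on control replicate 4, with the next control at 8.82 and the lowest at 8.77 (ratio 0.91). Tyrobp was at 8.93 on control replicate 3, with the next at 9.31 and the highest at 9.37 (ratio 0.862). Cd53 was at 9.31 on control replicate 3, with the next at 9.85 and the highest at 9.88 (ratio 0.958). Chance flags about 1 in 20 groups, and 30 members in 3 groups each were looked at. Without control replicate 3 the adjusted p of limma in Fh1-/-Hif-1α-/- against control kidneys was 0.052 for Tyrobp and 0.09 for Cd53.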

How the results depend on the processing

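The median log2 fold change of the members moved by less than 0.23 under all alternatives run, the spread between arrays of the members' mean with Fcer1g kept. Without Fcer1g that mean had SDs of 0.16, 0.22 and 0.18 in control, Fh1-/- and Fh1-/-Hif-1α-/- kidneys. On replicates 3 and 4 alone the median for Fh1-/-Hif-1α-/- against control went from 0.93 to 0.73. All medians stayed above 0, except that between the knockout groups it went from 0.20 to 0.00 on those arrays. There the median is smaller than 0.23, so this spread cannot show whether it is stable. The count called in Fh1-/- against control kidneys was 14 (6.16% of all genes) and became 8 without moderation, 7 at an adjusted p under 0.01 and 6 with a fold of at least 2. On replicates 1 and 2 alone it was 7 (1.44% of all genes) and on replicates 3 and 4 alone 0 (0.332%), while leaving out 1 array gave 9 to 18. In Fh1-/-Hif-1α-/- against control kidneys the count was 23 (19.3% of all genes) and became 11 with a fold of at least 2 and 3 on replicates 3 and 4 alone (1.49%), while leaving out 1 array gave 18 to 25. For fits without moderation, stricter thresholds, blocks, the Xist covariate and leaving out an array, the share of all genes was not counted. Whether a drop there is particular to the members was not tested. Between the knockout groups the count was 0 (0.267% of all genes), and 1 on replicates 1 and 2 alone (0.292%), where Fcer1g was called lower (-3.88, adjusted p = 0.034, limma), while leaving out 1 array gave 0 to 0. The array sets hold 2 arrays per group, and the cause of these differences was not tested. With the replicate number as a block the counts were 12, 22 and 0, but the numbers do not pair the samples, since same-numbered pairs correlated from -0.309 to 0.499. With Xist as a covariate they were 15, 24 and 0. Of the calls in Fh1-/- kidneys 8 of 14 held without any 1 array, and in Fh1-/-Hif-1α-/- kidneys 18 of 23. Under every alternative run, with the stricter thresholds and the single array sets among them, 0 of 14 and 3 of 23 held. For the 13 members with several probes, 11 had probes of 1 sign in each comparison with control. Of the called members, 1 value reversed, that of Mpeg1 on its second probe (-0.05).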

Other observations

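Cfap126, a gene of cilia with 5 measured genes between it and Fcer1g on chromosome 1, was looked at after its values were seen. Its signal was 8.54, 8.90, 7.28 and 8.92 on control, 8.81, 8.55, 8.47 and 7.43 on Fh1-/- and 7.95, 7.88, 7.34 and 7.41 on Fh1-/-Hif-1α-/- arrays, and control replicate 3 and Fh1-/- replicate 4 were the lowest of their groups, as they were for Fcer1g. No test was run on this.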
